A study of Mus musculus with 22 samples.

Results

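Aerocytes are the Car4+ capillary endothelial cells of the lung, and 1909 barcodes that carried their marker transcripts were found among 13301 endothelial barcodes in 11 mouse libraries of pooled organs. Members were chosen by their own transcripts. A barcode had to hold at least 200 detected genes, at most 25% mitochondrial UMIs (unique molecular identifiers, 1 per captured transcript), a UMI in at least 2 of the 4 endothelial genes Pecam1, Cdh5, Cldn5 and Egfl7, and a UMI in at least 2 of the 5 aerocyte genes Car4, Ednrb, Tbx2, Fibin and Apln. It also had to hold no UMI of Ptprc (leukocytes), Epcam (epithelium), Mmrn1 (lymphatic endothelium) or Stab2 (liver sinusoids). The members were 14.35% of the endothelial barcodes, out of 93055 barcodes that passed the quality filters and 179929 in the whole series.

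The alveolar wall holds 2 kinds of capillary cell. Aerocytes are large, thin cells that lie against the alveolar epithelium, carry carbonic anhydrase 4 on their surface and are specialised for gas exchange. General capillary cells express the apelin receptor and Kit, regulate vessel tone, and serve as progenitors that renew both kinds after injury. Aerocytes depend on VEGF from the alveolar epithelium, which they receive through Kdr.

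The study asked how loss of the sodium leak channel gene Nalcn affects cancer metastasis and the shedding of cells into blood. The tissue libraries used here came from mice without tumours. All mice carried Prom1-CreERT2, a tamoxifen-dependent Cre expressed from the Prom1 locus, and Rosa26ZSG, a reporter that recombined cells express as green fluorescent protein. Tissue libraries came from wt mice with no Nalcn allele named in the strain label (5 libraries, aged 571, 571, 608, 611 and 654 days), Nalcn-het mice (2 libraries, both 551 days) and Nalcn-null mice (2 libraries, 552 and 611 days). Wt replicates 4 and 5 and null replicate 3 were labelled female and the others male. The genotype of null replicate 3 was taken from its strain label, and those of the others from their titles. In each library the organs, lung, kidney, liver and stomach with epididymis or uterus, were tagged and then pooled, and the tags were not used here, so no barcode was assigned to an organ. Another 2 tissue libraries, from a male aged 610 days and a female aged 647 days by their labels, had titles and strain labels that named different genotypes. They entered no comparison between genotypes and no test between classes, but their 34 and 459 members are among the 1909 and in the shares and levels given over all members or over subsets of them. Cre acts where Prom1 is expressed at the time of tamoxifen, which the paper gave at far younger ages than those above. In the summed members of 8 libraries Prom1 had 16 UMIs and Nalcn 2 UMIs, of 5472038 in all. These counts from aged mice cannot show whether the members or their precursors recombined, and this was not tested.

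Wt replicate 5 gave 2 members. The remaining 8 labelled libraries gave 55 to 362 each, 1414 in all, and each was treated as 1 sample: 4 wt, 2 het and 2 null. The median member held 2067 UMIs and 1158 genes. Null replicate 3, labelled female, held Xist without Y-linked transcripts in 259 of 311 members and Y-linked transcripts without Xist in 4, and the summed level of 6 epididymal genes was higher there than in the other 7 libraries, at 1402 CPM (UMIs per 1000000 UMIs of the summed members). Counts of genes that passed are also given without this library. No member was found among 2109 passing barcodes of circulating cells from mice without tumours, which allows a share of up to 0.1422%, or among 679 blood mononuclear cells, which allows up to 0.4418%. These limits are 3 divided by the number of passing barcodes and cover counting error only. By the paper's methods the circulating cells were sorted for the green reporter, so the first limit holds for that sorted fraction. By their labels the circulating cells came from wt, het and null mice of both sexes, none younger than 551 days. The blood mononuclear cells came from a wt male labelled far younger than any tissue mouse. In the tissue libraries 76 member barcodes, 3.981%, also occurred in another tissue library, compared with 4.268% of all barcodes, and 1 barcode was a member in more than 1 library.

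The promoter sequences of 3 genes that mark these cells are shown because the marker that named the cell type, the leading surface gene that the rule did not use and the VEGF receptor are the levels on which the results turn. Each run is the 250 bases before the RefSeq start on the gene's own strand in GRCm38.p6, 5′ to 3′: Car4 at chr11:84957504-84957753 on the plus strand, Emp2 at chr16:10313969-10314218 and Kdr at chr5:75978456-75978705, both on the minus strand. Capitals mark matches to 4 motifs searched on both strands, CCGGAA (the ETS core that endothelial factors bind), TGTTTAC (forkhead), AGGTGTGA (T-box) and ACGTG (hypoxia response).
Car4: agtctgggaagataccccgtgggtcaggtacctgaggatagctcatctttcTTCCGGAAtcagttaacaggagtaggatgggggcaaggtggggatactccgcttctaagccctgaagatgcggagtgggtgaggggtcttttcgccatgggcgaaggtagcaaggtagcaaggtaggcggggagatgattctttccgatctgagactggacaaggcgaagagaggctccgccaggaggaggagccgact
Emp2: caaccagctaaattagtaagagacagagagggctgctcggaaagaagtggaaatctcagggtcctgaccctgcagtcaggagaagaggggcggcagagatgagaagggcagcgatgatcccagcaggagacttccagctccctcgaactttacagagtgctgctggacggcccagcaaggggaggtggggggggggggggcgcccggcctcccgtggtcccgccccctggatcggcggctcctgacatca
Kdr: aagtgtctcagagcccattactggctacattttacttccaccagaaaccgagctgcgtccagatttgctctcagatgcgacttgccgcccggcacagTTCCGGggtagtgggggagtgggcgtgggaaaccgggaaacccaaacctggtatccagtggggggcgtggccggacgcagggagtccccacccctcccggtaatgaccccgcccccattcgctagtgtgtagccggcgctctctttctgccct
The Car4 window held the ETS letters on both strands, overlapping in a single palindrome, and the Kdr window held them once, whereas 12% of 32851 promoter windows of this length held them. The Emp2 window matched none of the 4 motifs, and the other 3 motifs, found in 3.17%, 1.12% and 16.6% of all windows, were in none of the 3 sequences. These are matches of letters and not measured binding sites.

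The 5 genes that chose the members are given as a description. Car4, which speeds the exchange of carbon dioxide and bicarbonate at the capillary surface, had a UMI in 80.83% of members, and Ednrb, the receptor that clears endothelin, in 80.72%. The T-box factor Tbx2 was seen in 52.49%, the secreted factor Fibin in 43.32% and Apln, the apelin ligand, in 33% of members. In the 8 libraries Car4 ranged from 574 to 1086 CPM with a median of 703 CPM. Ednrb ranged from 579.9 to 880.1 CPM with a median of 737 CPM. Neither gene fell near 0 in any library, which follows in part from the rule.

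Members carried different numbers of these genes. Exactly 2 were detected in 848 members, 3 in 540, 4 in 378 and all 5 in 143. Among those with exactly 2, Car4 with Ednrb was the most frequent pair (295), followed by Ednrb with Tbx2 (167) and Car4 with Tbx2 (145). Just outside the rule, 3548 endothelial barcodes held 1 of the 5 genes, most often Ednrb (52.06%) and then Car4 (29.48%). The median UMI count was 2135 just inside the threshold, with 2 genes, and 1888 just outside it, with 1 gene. Excluded genes removed 822 of 2731 barcodes that met the other criteria, which is 30.1%. Of barcodes that passed the endothelial criteria they left 819 of 1236 and 1990 of 4082 in wt replicates 1 and 2. In wt replicates 3 and 4 they left 599 of 965 and 1393 of 2348. In het replicates 1 and 2 it was 1463 of 1855 and 725 of 940, and in null replicates 2 and 3 730 of 924 and 1826 of 2414. A smaller part was thus kept in each wt library, and the part of this in the comparisons between genotypes was not tested.

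The label was checked against genes of lung and kidney endothelium. Of all members, 86.59% held more of the 8 lung endothelial genes (Foxf1, Tmem100, Hpgd, Scn7a, Ace, Calcrl, Ramp2, Hoxa5) than of the 6 kidney endothelial genes (Ehd3, Igfbp5, Igfbp3, Sost and Plat among them), and 10.48% held more kidney genes. For the general capillary and other endothelial barcodes defined below, these shares were 95.99% and 2.038%, and 51.75% and 36.03%. The 2 groups were unevenly divided by Car4. Among the 1543 members with a Car4 UMI, 94.88% held more lung genes and 3.24% more kidney genes. Among the 366 members without one, which entered through the other 4 genes, 51.64% held more lung genes and 40.98% more kidney genes. The lung label thus held for most members with a Car4 UMI, and it did not hold for many of those without one, to an extent that differed between libraries.

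The split differed between libraries. Among members without a Car4 UMI, those with more lung than kidney genes were 26.19%, 34.85%, 85.71% and 73.08% in wt replicates 1 to 4, 41.03% and 16.13% in het replicates 1 and 2, and 92.86% and 60% in null replicates 2 and 3. Among members with one they were 87.5% to 97.06%. The gap was thus small in wt replicate 3 and null replicate 2, which had 7 and 14 members without a Car4 UMI. Igfbp5, an insulin-like growth factor binding protein abundant in kidney capillaries, was 362 ± 332 CPM (SD, n = 8 libraries) in members with a Car4 UMI and 2582 ± 1290 CPM in members without, and was higher without Car4 in 8 of 8 libraries. Ehd3, an endocytic trafficking protein of glomerular endothelium, was 33.6 ± 12.6 and 161.5 ± 124 CPM and was also higher without Car4 in 8 of 8. Foxf1, the transcription factor that marks lung mesoderm and lung endothelium, went the other way, with 500.4 ± 130 CPM with Car4 and 168 ± 134 CPM without, and was higher with Car4 in 8 of 8. Null replicate 2 had the smallest gap, since Foxf1 was 546 CPM with Car4 and 466.4 CPM without it there. Kdr was 1273 ± 185 and 987 ± 173 CPM, and was higher with Car4 in 7 of 8 libraries. No test was made of this split, since it was chosen after the values were seen. Members without a Car4 UMI made up 11.25% to 39.74% of the members of a library.

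**Figure D1:**
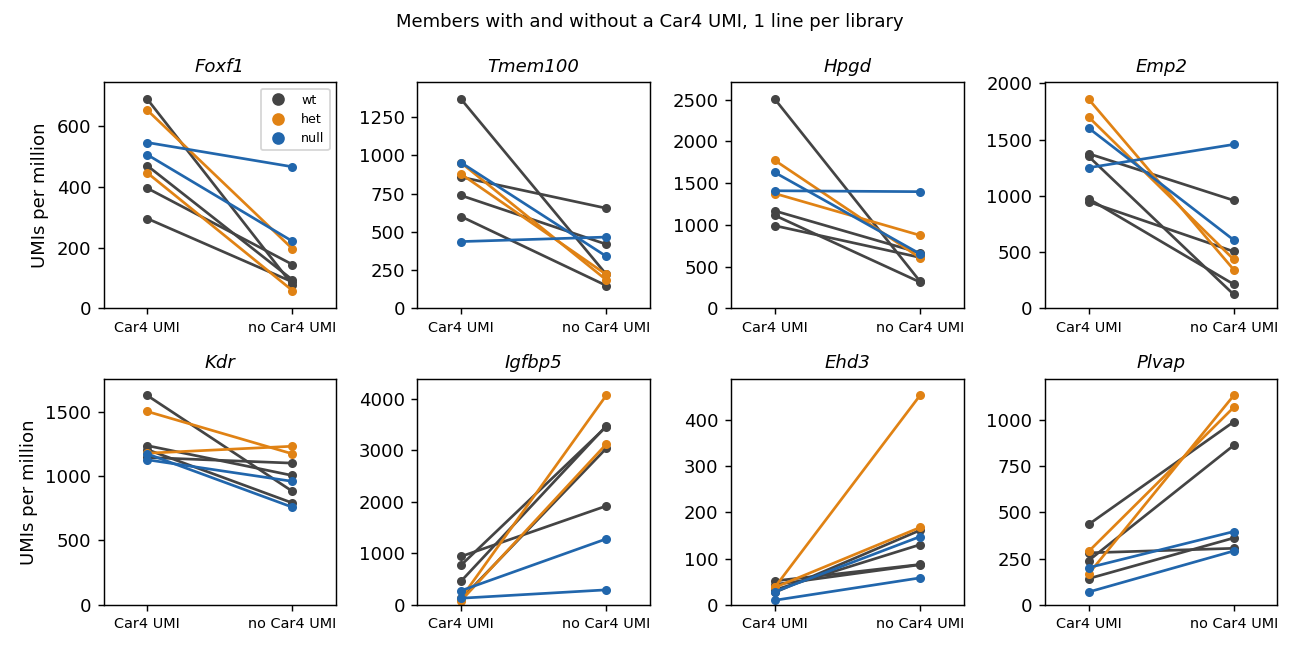
Levels in CPM of 8 genes in members with and without a Car4 UMI, each line 1 of 8 libraries coloured by genotype. Igfbp5 and Ehd3 rise from left to right in all 8 libraries and Foxf1 falls in all 8, with 1 null library nearly flat for Hpgd.

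Smooth muscle and pericyte transcripts were higher in members without a Car4 UMI. Acta2, smooth muscle actin, was 507 CPM in these and 9.84 CPM in members with one. The 308 members that had exactly 2 genes without Car4 had 329.5 CPM. The 58 members that had 3 or 4 of the genes without Car4 summed to 1308 CPM of Acta2 and 382 CPM of Notch3, a mural cell receptor. The 512 members that had 4 or 5 genes including Car4 had 5.13 and 17.1 CPM of these. At least 2 of 6 mural genes were detected in 17.24% of the 58, in 10.06% and 8.519% of members with exactly 2 genes without and with Car4, in 4.492% of those with 4 or 5 genes, and in 14.63% of the 663 members that had 2 or more general capillary genes, whose median depth was 3604 UMIs. Of the 14 aerocyte genes that the rule did not use, Nckap5 was alike at 165, 166 and 158 CPM in members with exactly 2, 3 and 4 or 5 rule genes including Car4, and the others were higher with more rule genes. Emp2, for example, was 726 CPM with exactly 2 genes including Car4, 1358 CPM with 3 and 2088 CPM with 4 or 5.

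The first comparison asked how aerocytes differ from general capillary cells of the same libraries, and it was made on genes that neither rule used. General capillary cells were defined as endothelial barcodes with no UMI of the 5 aerocyte genes and a UMI in at least 2 of Gpihbp1, Aplnr, Sema3c, Kit and Glp1r (3092 barcodes in all 11 libraries, 2170 in the 8 tested). Counts were summed per class and library, and the quasi-likelihood test of edgeR was applied with the library as a block, its p-values adjusted by Benjamini-Hochberg. Of 8813 genes tested, 13.3% passed an adjusted p of 0.05, with 490 higher in aerocytes (5.56%) and 678 lower (7.69%). The split turned with fewer calls, to 183 higher and 140 lower with mitochondrial UMIs at most 10%, and to 218 and 151 with no library block. DESeq2 called 9.33%. Without null replicate 3 the counts were 411 and 506. Levels below are mean CPM ± SD over 8 libraries, and differences are log2 values ± SE, aerocytes minus the other class.

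Of 14 aerocyte genes that the rule did not use, 13 were higher in aerocytes and 1 was lower, with a median difference of 1.78 on the log2 scale compared with -0.01 over all genes tested. Chst1, a sulfotransferase that acts on keratan sulfate, had the largest difference of the 14. It ranged from 84.9 to 185 CPM in aerocytes (median 130.1) and from 0 to 7.51 CPM in general capillary cells (median 4.09), and the classes did not overlap in any library. The fitted difference was 5.09 ± 0.23, adjusted p = 1.15e-13 by edgeR. Emp2, an epithelial membrane protein that regulates integrins and caveolae, ranged from 821 to 1593 CPM (median 1299) in aerocytes and from 64 to 272 CPM (median 181) in general capillary cells. Again no library of one class reached the range of the other, and the difference was 2.86 ± 0.12 (edgeR, adjusted p = 7.51e-14).

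**Figure D2:**
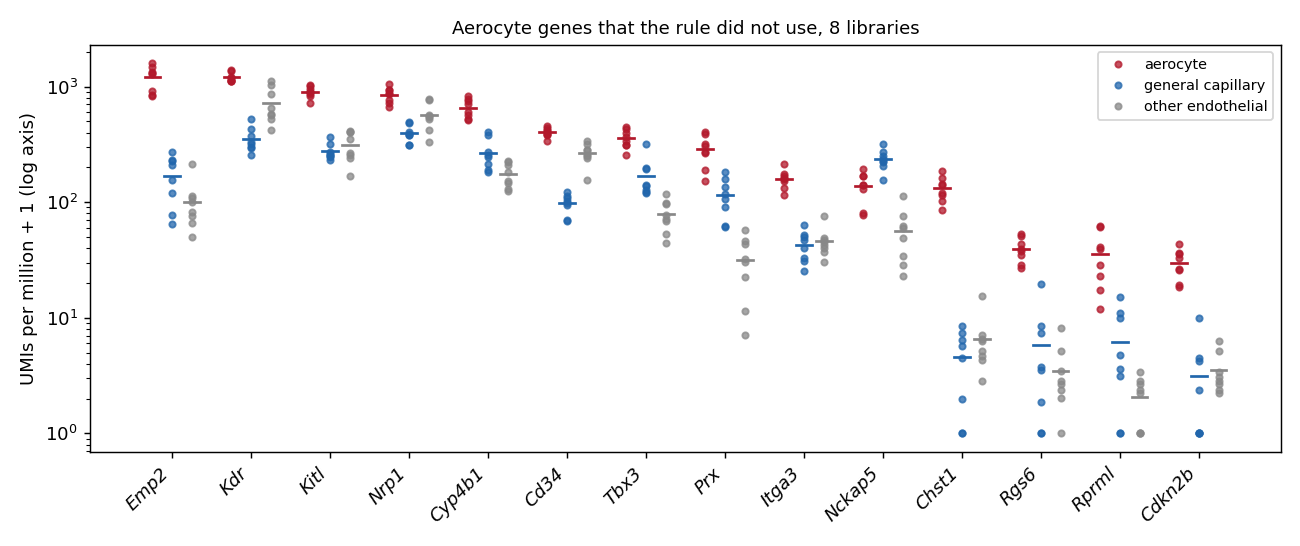
Levels in CPM plus 1, on a log axis, of 14 aerocyte genes that the rule did not use, each point 1 of 8 libraries and each line the mean of a class. Aerocytes lie above general capillary cells for 13 of 14 genes, the exception being Nckap5.

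Other members of the list followed. Kitl, the ligand of the Kit receptor carried by general capillary cells, was 898 ± 104 CPM in aerocytes and 274 ± 46 CPM in general capillary cells, a difference of 1.65 ± 0.08. Cd34, a sialomucin of vascular and progenitor cells, was 402 ± 37.3 and 96.4 ± 19.3 CPM (1.92 ± 0.10). Tbx3, the close paralogue of Tbx2, was 356 ± 64.9 and 168 ± 66.6 CPM (1.09 ± 0.12), and Itga3, an integrin subunit that binds laminin, 158 ± 29.2 and 41.8 ± 12.7 CPM (1.83 ± 0.13). All of these passed the test and were higher in 8 of 8 libraries. Nckap5 was the exception, at 136 ± 41.3 and 236 ± 48.4 CPM, and was lower in 8 of 8 libraries (-0.89 ± 0.11, edgeR adjusted p = 3.19e-06).

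Shares of barcodes in all 11 libraries were compared at equal depth. When each barcode was thinned to 1000 UMIs, leaving 1627 aerocytes, 2512 general capillary cells and 3986 B cells, Emp2 was detected in 58.33% of aerocytes, 13.38% of general capillary cells and 0.9282% of B cells, which should lack it. Before thinning these shares were 76.01%, 21.09% and 2.397%, at median depths of 2067, 1595 and 2082 UMIs. Thinning left out 282 aerocytes, 580 general capillary cells and 686 B cells that were shallower.

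The VEGF pathway was divided. Kdr, the main signalling receptor for VEGF-A, ranged from 1105 to 1385 CPM in aerocytes (median 1157) and from 254 to 523 CPM in general capillary cells (median 323). The difference was 1.73 ± 0.08 with an edgeR adjusted p of 4.16e-13, and Nrp1, its co-receptor, was also higher (849 ± 126 against 394 ± 68 CPM, 1.02 ± 0.07). The ligand Vegfa was lower in aerocytes, 185 ± 85.2 against 361 ± 154 CPM (-1.07 ± 0.09), and was lower in 8 of 8 libraries. Vegfc, the lymphatic ligand, was lower too, at 24.6 ± 19 against 50.5 ± 24.9 CPM. Flt1, the decoy receptor, did not pass the test, with a difference of 0.04 ± 0.08. Of 9 genes of this list 3 were higher, 2 lower and 4 did not pass; Pgf was the third that was higher, but only in 4 of 8 libraries.

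In the endothelin system Edn1, the ligand, was lower in aerocytes at 149.9 ± 66.7 against 341 ± 111 CPM, a difference of -1.23 ± 0.11, and Ece1, the enzyme that activates it, was lower by a smaller amount (-0.34 ± 0.08). Ednra, the receptor of contractile cells, was higher at 14.8 ± 9.94 against 9.2 ± 6.93 CPM (1.25 ± 0.40, edgeR adjusted p = 0.035), in 5 of 8 libraries. It was 120.1 CPM in the 58 members with 3 or 4 rule genes without Car4, whose mural gene levels are given above, and 17.31 CPM in members with a Car4 UMI, among which the difference was 0.90 ± 0.43 and did not pass (edgeR adjusted p = 0.224). Of 3 tested genes of the apelin and endothelin list 1 was thus higher and 2 lower, and Ednrb itself belonged to the rule and was not tested. Genes of vessel tone were mixed: Npr3, the natriuretic peptide clearance receptor (-0.82 ± 0.09), Ace (-0.47 ± 0.08) and Npr1 (-0.38 ± 0.11) were lower, whereas Ramp3, a partner of the calcitonin receptor-like receptor, was higher (0.84 ± 0.21). Ace was 634.1 CPM in members with a Car4 UMI, 194.8 CPM in those without and 682.2 CPM in general capillary cells, and Ramp3 was 31.08, 126.2 and 24.42 CPM. Among members with a Car4 UMI neither passed (Ace -0.20 ± 0.08, Ramp3 0.25 ± 0.20). Gucy1a1, a subunit of the nitric oxide receptor, was 66.1 ± 27.9 against 46.9 ± 31.4 CPM (0.92 ± 0.24), but this turned to -0.13 when members with 2 or more general capillary genes were left out. Nos3, which makes nitric oxide, did not pass (0.01 ± 0.20).

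Genes that mark general capillary cells, and that the rules did not use, were lower in aerocytes for 6 of 7 tested, with a median of -0.89. Ptprb, the endothelial phosphatase that restrains Tek, was 1294 ± 289 against 2292 ± 510 CPM (-0.92 ± 0.07). Cd93 (665 ± 116 against 1183 ± 230 CPM), Tek, the angiopoietin receptor (284 ± 48.6 against 443 ± 67.4 CPM), Cxcl12, a chemokine (158 ± 47 against 288 ± 125 CPM), Adgrl3 and Lpl, lipoprotein lipase, were each lower in 8 of 8 libraries. Plvap, of the fenestral diaphragm, did not pass (-0.27 ± 0.13).

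All 5 MHC class II genes were lower in aerocytes. H2-Aa, which encodes an antigen-presenting chain, ranged from 149.6 to 501 CPM (median 380.2) in aerocytes and from 373 to 844 CPM (median 613) in general capillary cells. These ranges overlap across libraries, but within each of the 8 libraries aerocytes were the lower class (-0.92 ± 0.10, edgeR adjusted p = 3.39e-07). Cd74, the invariant chain, was 1181 ± 495 against 2103 ± 758 CPM and Ciita, the activator of the set, 24.2 ± 9.42 against 52.7 ± 26.6 CPM. Of 6 MHC class I genes, H2-K1 and Tap1 were lower and 4 did not pass. The whole leukocyte marker list of 8 genes summed to 62.6 to 1731 CPM in aerocytes and 168 to 1954 CPM in general capillary cells, with Ptprc at 0 in both by the rule. Its part in the class II result was not tested.

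The cell cycle inhibitors Cdkn2a and Cdkn2b, neighbours on chromosome 4 that encode p16 and ARF, and p15, were both higher in aerocytes. Cdkn2a ranged from 12.7 to 36.9 CPM in aerocytes (median 18.1) and from 0 to 3.18 CPM in general capillary cells (median 2.58), with 133 and 12 UMIs in all. The difference was 3.20 ± 0.35 (edgeR, adjusted p = 3.42e-07), and Cdkn2b differed by 3.08 ± 0.32. Few barcodes held the transcript: Cdkn2a was detected in 5.291% of aerocytes, 0.4528% of general capillary cells and 2.911% of B cells, and after thinning in 3.135%, 0.1194% and 0.853%. It was 46.7 CPM in members with 4 or 5 genes including Car4 and 6.29 CPM in those with exactly 2 including Car4. The other inhibitor genes, Cdkn1a, Cdkn1c, Gadd45a and Gadd45b, did not pass. Without members that had 2 or more general capillary genes Cdkn1a was lower (-0.84 ± 0.15, edgeR adjusted p = 0.000191). Cdkn2a (3.58 ± 0.42) and Cdkn2b (3.34 ± 0.42) were still higher there.

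Basement membrane genes were higher in aerocytes for 4 of 9, Lamc1 (1.03 ± 0.16), Hspg2 (0.90 ± 0.18), Nid1 (0.45 ± 0.13) and Sparcl1 (0.36 ± 0.12), and none was lower. Lamc1, the laminin chain shared by most laminins, was higher in 8 of 8 libraries, but Hspg2, perlecan, was -0.02 among members with a Car4 UMI and -0.51 among those with at least 3 rule genes. Of 7 leukocyte adhesion genes 2 were higher, Icam2 (624 ± 120 against 349 ± 72 CPM) and Cx3cl1, and 2 were lower, Vcam1 (45.2 ± 25.4 against 129.9 ± 72 CPM) and Cxcl12. Of 7 coagulation genes 1 was higher, 2 were lower and 4 did not pass. Vwf, the carrier of factor VIII, was lower (149 ± 65.5 against 417 ± 86.5 CPM, -1.55 ± 0.17) in 8 of 8 libraries, and Plat, tissue plasminogen activator, in 5 of 8 (-0.61 ± 0.13). Of 7 caveola genes 5 did not pass, Cavin3 being higher (1.04 ± 0.15) and Cav1 lower (-0.24 ± 0.08). Without members that had 2 or more general capillary genes, Cavin3 differed by 1.45 ± 0.15 and Cav1 by -0.66 ± 0.12. Cavin2 was lower as well in that setting (-0.40 ± 0.12, edgeR adjusted p = 0.0191).

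Among genes of gas exchange and fluid transport other than Car4, none of 6 tested was higher and 2 were lower, the water channel Aqp1 (-0.57) and the carbonic anhydrase Car14 (-0.75). Of 13 transcription factors 2 were higher, Tbx3 and the homeobox factor Meox1 (2.42), and 5 were lower. Of the 8 lung endothelial genes 4 were lower than in general capillary cells (median over the list -0.31), and none was higher. Among members with a Car4 UMI 1 of the 8 was lower, Hoxa5 (-0.55), and 1 higher, Scn7a (0.29), with a median of -0.06. Foxf1 (-0.01) and Tmem100 (-0.11) did not pass there. Without members that had 2 or more general capillary genes, Foxf1 (-0.54 ± 0.15) and Tmem100 (-0.80 ± 0.15) were lower, by edgeR adjusted p = 0.0144 and 0.000313. The other genes of the list are not given for that setting.

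By the rule for named genes, the other genes with the largest differences were Slc22a23, Edil3, Carmil1, Ccdc68, Ptp4a3, Enho, Frrs1 and Tnxb, higher by 2.37 to 3.54 on the log2 scale. Edil3 encodes a secreted integrin ligand and was 92 ± 23.6 against 9.98 ± 5.68 CPM. Ptp4a3, a phosphatase, was 236 ± 46 against 38.8 ± 6.84 CPM. The genes lower by the most were Dnase1l3, Slc6a2, Vwf, Samd5, Prss23, Pde3a, Mctp1, Edn1, Hmcn1 and Gpr182, from -3.01 to -1.22. Slc6a2, a noradrenaline transporter, was 27.1 ± 30.4 against 79.9 ± 56.9 CPM. Large vessel genes were lower for 4 of 8, Vwf and Slc6a2 among them. All 3 liver sinusoid genes tested were lower as well, Mrc1 at 12.8 ± 6.09 against 44.4 ± 46.9 CPM, Clec4g at 7.88 ± 5.07 against 42.4 ± 74.7 CPM and Lyve1 at 185 ± 87.5 against 319 ± 104 CPM.

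Fewer genes of the kidney endothelial and mural lists were higher when the members without a Car4 UMI were left out. Igfbp5 was 869 ± 484 CPM in aerocytes and 272 ± 110 CPM in general capillary cells (1.59 ± 0.14), and Igfbp3 was higher as well (0.73 ± 0.22). With members that had a Car4 UMI only, Igfbp5 differed by 0.27 and did not pass, 0 of 5 kidney genes were higher and 2 lower, and Igfbp3 was -0.19. Of all 8631 genes tested in that setting 475 were higher and 530 lower. Mural genes were higher for 5 of 6 (Acta2, Tagln, Cspg4, Notch3 and Pdgfrb, by 1.39 to 3.36), and for 1 of 5 among members with a Car4 UMI. The mural list summed to 82.3 to 696 CPM in aerocytes and 45.7 to 182 CPM in general capillary cells. The 13 aerocyte genes that were higher remained 13 in the same restriction, with a median of 1.87.

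Genes of other cells of the lung moved in part. Fibroblast genes had positive differences for 6 of 6 (median 0.73), of which Col3a1 (1.04 ± 0.31) and Pdgfra (0.83 ± 0.26) passed, and summed to 51.3 to 800.3 CPM in aerocytes and 17.8 to 390.1 CPM in general capillary cells. Their part in the other results was not tested. Hopx, a homeodomain protein of alveolar type 1 cells, was 361 ± 103 against 148 ± 57.3 CPM (1.17 ± 0.10) and higher in 8 of 8 libraries, whereas Ager, the defining surface receptor of those cells, did not pass (13.6 ± 6.82 against 12.8 ± 7.08 CPM). None of 4 alveolar type 2 genes tested passed. Haemoglobin genes summed to 361 to 19850 CPM in aerocytes and 128 to 36010 CPM in general capillary cells. Epididymal genes were lower in aerocytes for 5 of 6, and summed to 3.65 to 1402 CPM against 0 to 5180 CPM.

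**Figure D3:**
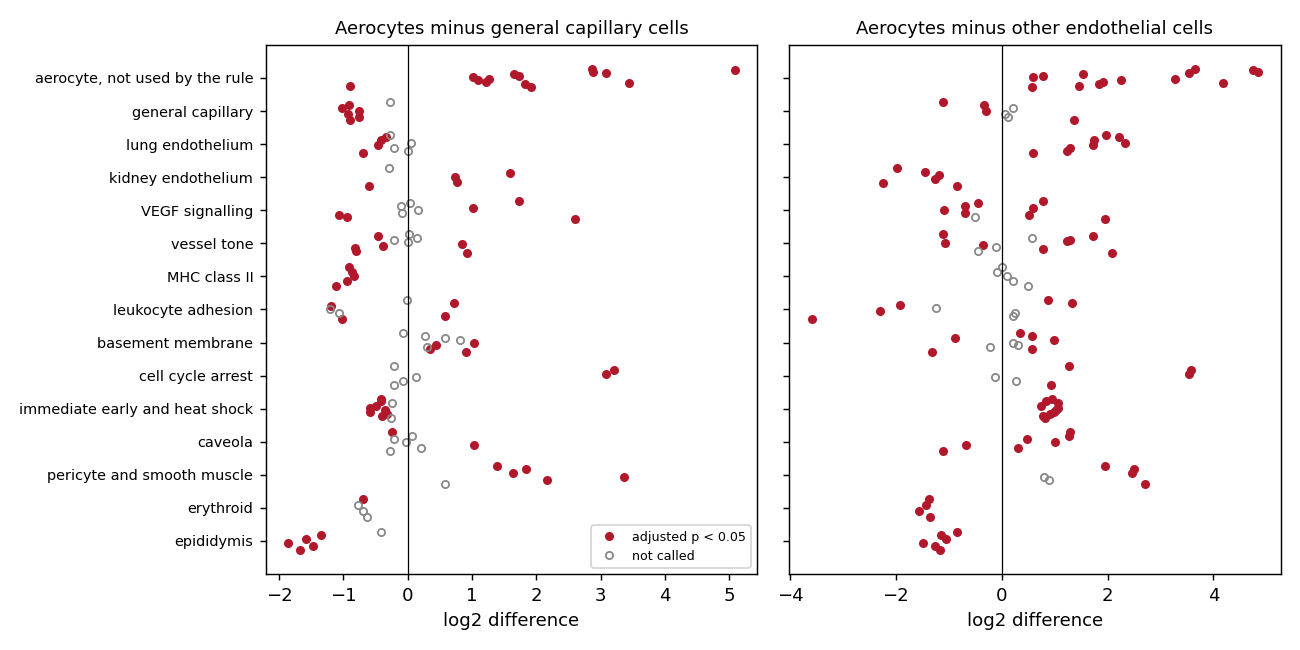
The log2 difference of aerocytes from general capillary cells (left) and from other endothelial cells (right) for each tested gene of 15 lists, filled where the edgeR adjusted p was under 0.05 and open where it was not. All 5 MHC class II genes are filled and below 0 on the left and open on the right, and the lung endothelial genes are all filled and above 0 on the right.

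The second comparison set aerocytes against the remaining endothelial barcodes, which had no aerocyte gene and at most 1 general capillary gene (4752 barcodes in all 11 libraries, 3299 in the 8 tested, median 1335 UMIs over the 11) and came from any of the organs. Of 10248 genes tested, 20.4% passed, with 1076 higher (10.5%) and 1013 lower (9.88%), and DESeq2 called 16.8%. The split turned in several settings, to 912 higher and 1048 lower with at least 3 aerocyte genes and to 925 and 1023 without wt replicate 4. It was 537 and 631 of 8735 genes without members that had 2 or more general capillary genes. With another scaling of the library sizes (RLE) it was 1014 and 1114. Without null replicate 3 the counts were 915 and 759. All 14 aerocyte genes that the rule did not use were higher, with a median of 2.08 compared with -0.04 over all genes. Emp2 was 1196 ± 298 against 100 ± 50 CPM (3.65 ± 0.13) and Prx, periaxin, 286 ± 86.9 against 30.3 ± 17.4 CPM (3.28 ± 0.17).

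All 8 lung endothelial genes were higher in aerocytes than in the other endothelial cells, from 0.59 for Hoxa5 to 2.33 for Scn7a, a sodium channel family member. Hoxa5 turned to -0.64 (edgeR adjusted p = 0.0348) without members that had 2 or more general capillary genes. It turned to -0.03 without barcodes of high UMI count in either class, above 2 times the median of their class and library. Foxf1 was 424 ± 120 against 123 ± 86.6 CPM and Tmem100, a target of BMP signalling, 723 ± 183 against 174 ± 106 CPM. All 6 kidney genes were lower, from -2.25 for Sost to -0.84 for Plat. The immediate early and heat shock genes, which cells induce within minutes of disturbance, were higher for 10 of 10 (median 0.93), although they were lower for 8 of 10 against general capillary cells (median -0.40). Without members that had 2 or more general capillary genes, 2 of the 10 were higher than in the other endothelial cells.

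Kdr was again higher, 1200 ± 112 against 716 ± 254 CPM (0.78 ± 0.10), and of the 9 genes of its list 4 were higher and 4 lower. Nrp1 (0.59 ± 0.08), Vegfa (0.52 ± 0.16) and Pgf (1.96 ± 0.55, in 4 of 8 libraries) were the other higher genes, and Flt1, Flt4, Nrp2 and Plxnd1 were lower. Vegfa turned to -1.02 without members that had 2 or more general capillary genes and to -0.45 without barcodes of high UMI count in either class. Caveola genes, which shape the plasma membrane vesicles of continuous endothelium, were higher for 5 of 7, among them Cav1 (828 ± 162 against 359 ± 157 CPM) and Cavin2 (1033 ± 140 against 525 ± 155 CPM), with Cavin3 and Plvap lower. None of 5 MHC class II genes passed, but 4 of 5 were lower when members with 2 or more general capillary genes were left out. Cdkn2a (3.58 ± 0.41), Cdkn2b (3.54 ± 0.31) and Cdkn1a (1329 ± 533 against 578 ± 314 CPM, 1.28 ± 0.12) were higher. Epas1, the hypoxia-inducible factor of endothelium, was 2535 ± 560 against 1388 ± 309 CPM (0.84 ± 0.08). Without members that had 2 or more general capillary genes Epas1 differed by 0.18 ± 0.08 and did not pass (edgeR adjusted p = 0.186), Cdkn1a differed by 0.58 ± 0.11 and 3 of 7 caveola genes were higher, while Cdkn2a (3.89 ± 0.44), Cdkn2b (3.75 ± 0.37) and Kdr (1.18 ± 0.11) were higher by more.

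The genes named by size were Chst1, Egflam, Aard, Emp2, Gnao1, Slc22a23, Prx, Hopx, Ccdc68 and Nhlrc2, higher by 2.73 to 4.75, and Dnase1l3, Scin, Fcgr2b, Mrc1, Selp, Ccl5, St8sia6, Ctsh, Car8 and Fbln5, from -3.98 to -2.10. Fcgr2b and Mrc1 are scavenging receptors of liver sinusoids, and Selp is the adhesion molecule of venules. Car8, a carbonic anhydrase family member without enzyme activity, was 17.8 ± 7.76 against 83.4 ± 34.5 CPM. Leukocyte genes were lower for 7 of 7 tested, haemoglobin genes for 4 of 4, hepatocyte genes for 4 of 4 and epididymal genes for 6 of 6. Mural genes were higher for 4 of 6, with a median of 2.20, and fibroblast genes for 1 of 6. The part of these lists in the other results was not tested.

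The last comparison asked whether aerocytes differed in number or transcripts between genotypes. Aerocytes were 18.44%, 18.19%, 9.182% and 8.112% of endothelial barcodes in wt replicates 1 to 4. They were 17.91% and 10.76% in het replicates 1 and 2, and 11.23% and 17.03% in null replicates 2 and 3. The groups overlapped fully, since the wt libraries held both the highest and the lowest share. The mean was 14.23 ± 3.76% in null and het libraries and 13.48 ± 5.60% in wt libraries (n = 4 each), a difference of 0.752 percentage points with p = 0.686 by an exact two-sided permutation test, adjusted to 0.971 over the 2 shares. The smallest p that 4 against 4 allows is 0.0286.

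As a share of aerocytes plus general capillary cells, wt libraries held 58.98%, 47.57%, 30.73% and 22.16%, het libraries 37.7% and 43.82% and null libraries 36.61% and 39.82%. The null and het values lay within the wt range. The means were 39.49 ± 3.18% and 39.86 ± 16.55%, a difference of -0.373 points (exact permutation p = 0.971), and when barcodes were thinned to 1000 UMIs it was 5.46 points (exact permutation p = 0.457). Restricting the permutations to labelled sex gave p = 0.7 for the share of endothelial barcodes (exact, smallest possible 0.05) and p = 1 for this share. Organs were pooled in amounts that the labels do not give, and the amount of lung in a pool cannot be told apart from the share of aerocytes among endothelial barcodes.

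**Figure D4:**
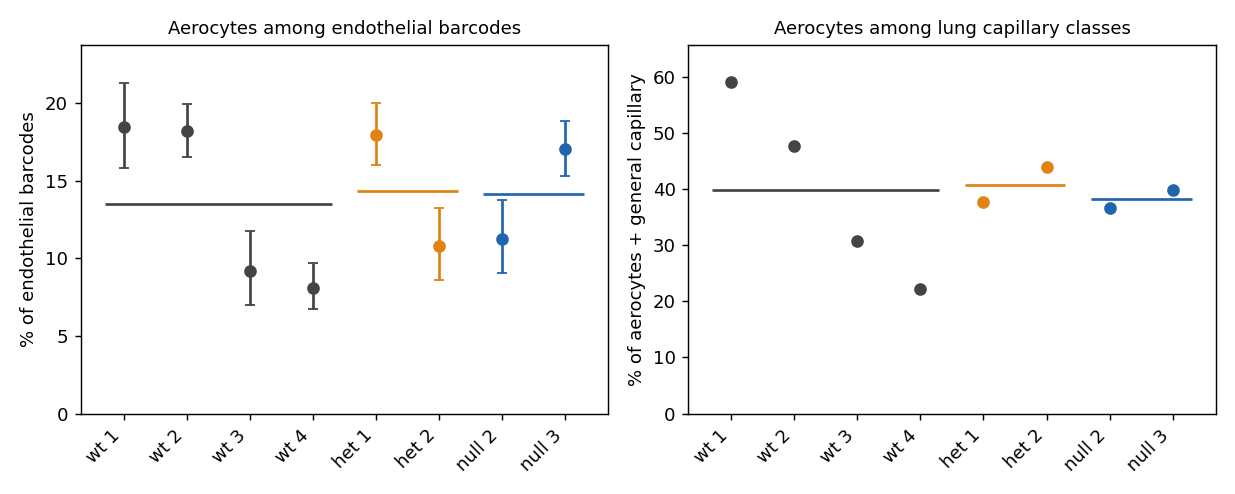
Aerocytes as a percent of endothelial barcodes (left, with 95% exact binomial intervals) and of aerocytes plus general capillary cells (right), each point 1 library and each line a genotype mean. The wt libraries span 8.112% to 18.44% on the left, and the het and null libraries lie inside that span.

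In the summed members, 0 of 8170 genes passed in null against wt, het against wt or both against wt, which is 0%, by edgeR with labelled sex as covariate. Age was not a covariate. Both het libraries (551 days) and null replicate 2 (552 days) were younger than the 4 wt libraries (571 to 611 days). Their genotype cannot be told apart from their age. Null replicate 3 was aged 611 days. At an unadjusted p under 0.05 there were 333 genes (4.08%), 575 (7.04%) and 459 (5.62%). DESeq2 on the same sums called 6 genes (0.0734%), 10 (0.122%) and 6 (0.0734%).

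The levels of the rule genes by genotype are a description. Car4 was 608, 602, 740.3 and 665 CPM in wt replicates 1 to 4, 817 and 574 CPM in het replicates 1 and 2, and 1086 and 966 CPM in null replicates 2 and 3. Both null libraries lay above the wt and het libraries. Each member had to hold at least 2 of the rule genes whatever its depth. The median depth of members was 1287 UMIs in null replicate 2 and 2170 UMIs in null replicate 3. In the wt and het libraries it was 1977 to 3384 UMIs, and the part of depth in these levels was not tested. The kidney endothelial list summed to 441.3 and 966.7 CPM in null aerocytes, below the 1502 to 2763 CPM in wt and the 1217 and 2404 CPM in het libraries, and its part in these levels was not tested. Fibin was 356 ± 96 CPM in null, 169.98 ± 9.16 CPM in het and 189 ± 39.2 CPM in wt libraries, and Apln 223 ± 44.3, 120 ± 17.2 and 125 ± 31.1 CPM. Ednrb showed no such order, with 704 ± 59.8 CPM in null, 855 ± 35 CPM in het and 720.4 ± 109.7 CPM in wt libraries.

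Aerocyte genes outside the rule did not pass either. Emp2 was 919, 821, 1316 and 837 CPM in wt replicates 1 to 4, 1593 and 1325 CPM in het and 1281 and 1477 CPM in null libraries. The deleted libraries overlapped with wt replicate 3 only, and the difference was 0.58 ± 0.21 (edgeR, adjusted p = 0.835). Kdr differed by 0.02 ± 0.16 and Kitl by -0.18 ± 0.17. None of the 14 genes passed. The difference was positive for 12 of 14 with the null and het libraries combined against wt (median 0.18, compared with -0.02 over all genes), for 12 in het alone and for 8 in null alone.

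Genes that DESeq2 called and edgeR did not are named after their values were seen. Hspb1, a small heat shock protein, was 683, 705, 943 and 1370 CPM in wt replicates 1 to 4, 2974 and 2355 CPM in het and 2351 and 1939 CPM in null libraries. The groups did not overlap, but the share of all tested genes whose groups did not overlap was not counted. For both deleted groups against wt the difference was 1.45 ± 0.24, adjusted p = 0.37 by edgeR and 0.000163 by DESeq2. Avpi1, a vasopressin-induced gene, was 37.6 to 80.4 CPM in wt libraries and 157 to 255 CPM in the others (2.01 ± 0.28, adjusted p = 0.105 by edgeR and 6.29e-05 by DESeq2). Igf1, a growth factor of stromal and myeloid cells, was 33.9, 38.3, 50.6 and 113 CPM in wt replicates 1 to 4, and 6.96 to 13 CPM in the other libraries (-2.51 ± 0.32, adjusted p = 0.105 by edgeR and 0.00636 by DESeq2). The leukocyte list had 0 of 5 positive differences for both deleted groups against wt (median -1.34), with 0 past the test. Its part in the Igf1 difference was not tested. The Igf1 difference was -0.99 ± 1.03 among members with a Car4 UMI, while Hspb1 (1.46 ± 0.25) and Avpi1 (2.09 ± 0.33) kept their size. Members that also had 2 or more general capillary genes were 25.17%, 24.31%, 36.36% and 40.71% in wt replicates 1 to 4, 45.42% and 39.74% in het and 41.46% and 41.16% in null libraries. Hspb1 was 2181 CPM in such members and 1220 CPM in members with 0 of those genes, and Avpi1 174.2 and 36.21 CPM. Without such members the differences were 1.22 ± 0.22 for Hspb1, 1.11 ± 0.38 for Avpi1 and -1.82 ± 0.43 for Igf1, and none passed by edgeR. Hsp90aa1, Hspa1a and the epididymal gene Spag11b were the other 3.

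The heat shock and immediate early list had 10 of 10 positive differences in null, het and both contrasts (medians 0.82, 0.80 and 0.81), with 0 of 10 past the test. Its summed level was 5821 to 11760 CPM in wt, 12140 and 19240 CPM in het, and 18940 and 11660 CPM in null libraries. Null replicate 3 thus lay just within the wt range. Igfbp5 was lower in null than wt libraries (153 and 404 CPM against 848 to 1521 CPM; -2.03 ± 0.52, adjusted p = 1 by edgeR and 0.0282 by DESeq2). In het against wt it was -0.54 ± 0.43, and -1.28 ± 0.36 for both deleted groups. Among members with a Car4 UMI the 3 differences were -0.63 ± 0.80, -2.49 ± 0.68 and -1.56 ± 0.54, smaller for null and larger for het, and none passed by edgeR. The summed epididymal list was highest in the null libraries, at 560 and 1402 CPM against 3.65 to 189.8 CPM in wt libraries, and 3 of the 6 genes that DESeq2 called in null against wt (Cst11, Cst12 and Spag11b) belong to it. Its part in the other differences was not tested.

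**Figure D5:**
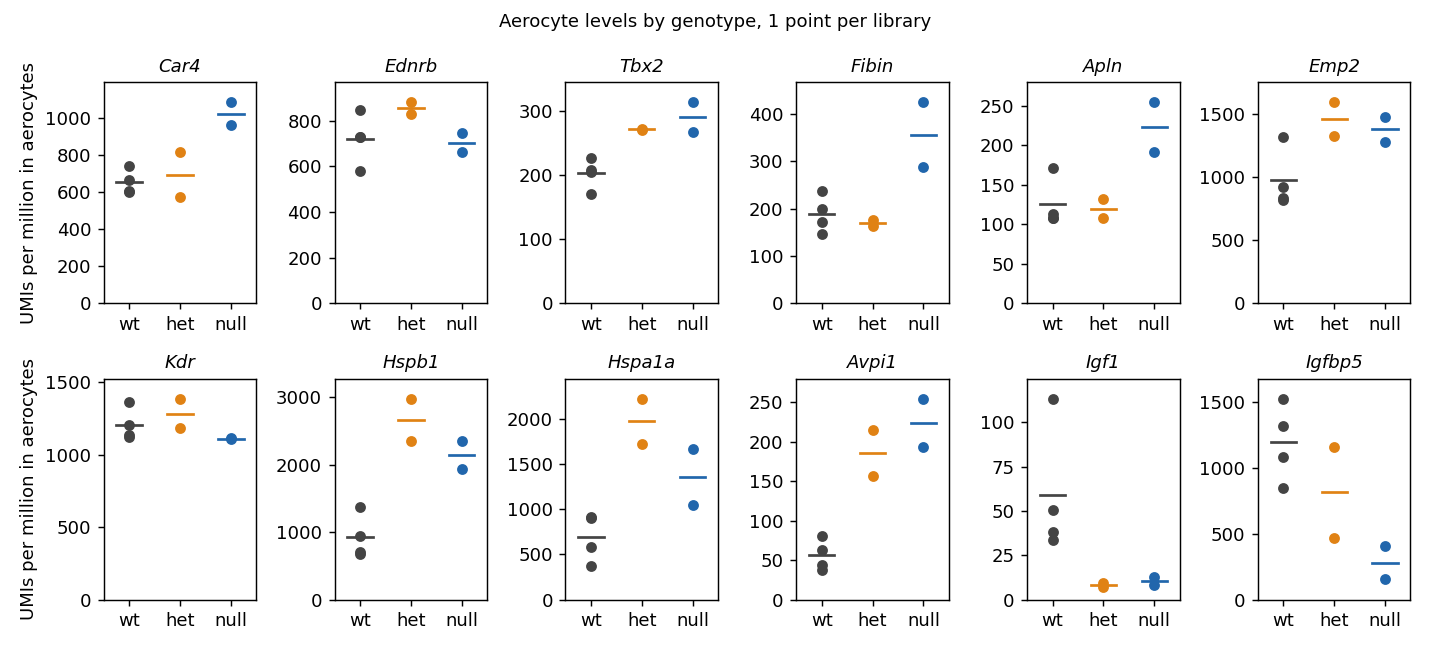
Levels in CPM of 12 genes in summed aerocytes of 4 wt, 2 het and 2 null libraries, each point 1 library and each line a mean. Hspb1 and Avpi1 are higher and Igf1 lower in all 4 het and null libraries than in the 4 wt libraries, and Kdr overlaps between groups. Hspb1, Avpi1 and Igf1 were picked after their values were seen, and none passed by edgeR.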

How the data were processed

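Single cells from dissociated, hashtagged and pooled mouse organs were captured on the 10x platform. The deposited files hold UMI counts per gene and barcode, which the authors made with Cell Ranger (version 2.1.1 in the submitters' processing notes, 3.0.2 in the matrix headers) on mm10; no values were normalised. Of 31053 gene entries, 99.6% matched GENCODE vM21, used for coordinates. The hashtag assignments were not analysed here. Doublets were not called; leukocyte, epithelial, lymphatic and sinusoid genes excluded mixed barcodes, and 34.73% of members held 2 or more general capillary genes.

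Counts were summed per class and library (at least 20 barcodes) and fitted with edgeR 4.0.16 (TMM, filterByExpr, quasi-likelihood, Benjamini-Hochberg at 0.05) over all genes. Genotype fits had labelled sex as covariate. Class fits had the library as block, with the rule genes and 13 mitochondrial genes taken out first. CPM is per 1000000 of all UMIs of the class in that library. DESeq2 1.42.0 was an alternative. Scripts were tested on simulated counts. Shares were compared by exact permutation (scipy). The members and lists were chosen with earlier results of these data known. Some listed genes are counted but not reported here singly. Named genes were those of the lists described, and per class comparison up to 10 higher and 10 lower by log2 difference among genes past the threshold, changed the same way in every library and at least 50 CPM in the higher class. Labels do not say whether libraries are separate animals, so p-values measure the spread between libraries. Replicate numbers are shared between genotypes, and deviations of same-numbered libraries from their group means had correlations from -0.246 to 0.189. In a group of 2 libraries these deviations mirror each other, so the correlations cannot settle whether libraries were paired. No pairing was assumed. Total UMIs per library, over all 8, ranged from 22098760 in null replicate 2 to 139793927 in wt replicate 2. The second highest total was 79912085, in wt replicate 1.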

Additional observations from a re-analysis of the deposited data

Results flagged for a closer look

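Among 29 groups of 4 wt libraries, for the aerocyte shares and for genes that the rule did not use, 0 had a single library whose gap to the others exceeded Dixon's critical value of 0.829 of the group's range.

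The libraries with conflicting genotype labels, which entered no comparison between genotypes and no test between classes, also held aerocytes. The first had 34, or 6.8% of its endothelial barcodes, and the second 459, or 14.17%.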

How the results depend on the processing

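No pairing by the replicate numbers of the labels was assumed, and a fit with the replicate block in place of the sex covariate called 0 genes in each genotype contrast. For null and het against wt, 1 gene passed with at least 3 aerocyte genes per member, 6 with DESeq2, 158 with no filter on low counts and 1 without members of high UMI count. For het against wt the counts were 6, 10 and 249 in the first 3 of these settings and 2 with mitochondrial UMIs at most 10%. For null against wt they were 1, 6 and 44, and 4 without the sex covariate. Leaving out 1 library gave 0 to 2, 0 to 5 and 0 to 1 genes for the 3 contrasts, the 2 and the 5 both without wt replicate 1. For null against wt, 1 gene passed without null replicate 3 and 1 without wt replicate 4. In both fits a single female library remained, which the sex covariate takes up, so that null replicate 2 alone stood for the null group. Where 1 null or het library remained, it was assumed to vary like the other groups.

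Against general capillary cells, 323 genes passed with mitochondrial UMIs at most 10%, where 6 libraries remained, and 369 with no replicate block (here the library), against 1168. DESeq2 called 822, and leaving out 1 library gave 856 to 1207. More genes passed, 1522 of 7457 tested, without members that had 2 or more general capillary genes, and 974 of these were shared. Without barcodes of high UMI count in either class 1217 of 5894 passed, compared with 1168 of 8813 in the main fit. Against other endothelial cells 1142 passed with mitochondrial UMIs at most 10% and 942 with no replicate block, against 2089. Without members that had 2 or more general capillary genes the count was 1168. Leaving out 1 library gave 1638 to 2026. The cause of these changes was not tested. Members with a Car4 UMI, chosen after seeing the data, gave 1005 of 8631 and 2129 of 9725 genes, of which 875 and 1876 were shared.

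The difference in the share of endothelial barcodes, 0.752 points, was 3.499 with mitochondrial UMIs at most 10%, 2.206 with at least 1000 UMIs and 2.421 when thinned (exact permutation p = 0.514, 0.543 and 0.286), and ranged from -1.037 to 2.405 points when 1 library was left out, negative without het replicate 1, null replicate 3, wt replicate 3 or wt replicate 4. The share of aerocytes plus general capillary cells differed by 4.639 points with mitochondrial UMIs at most 10%, 1.11 with at least 1000 UMIs and 5.459 when thinned, and by -6.273 to 6.002 when 1 library was left out.

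Against general capillary cells, log2 differences turned with at least 3 aerocyte genes for Ramp2 (0.244), Igfbp3 (-0.6995), Nrp2 (-0.6849) and Hspg2 (-0.5141). With a Car4 UMI they turned for Igfbp3 (-0.1924) and Hspg2 (-0.02025), and without members holding 2 or more general capillary genes for Gucy1a1 (-0.1272). Against other endothelial cells the last setting turned Cxcl12 (-0.9139), Cd93 (-0.8716), Adgrl3 (-0.1033), Hoxa5 (-0.6407), Vegfa (-1.02), H2-Aa (-0.8461), H2-Eb1 (-0.775), Cd74 (-1.03) and Atf3 (-0.1191). Without barcodes of high UMI count in either class, Cd93 (-0.5751), Hoxa5 (-0.03384), Vegfa (-0.4455), H2-Aa (-0.5605), H2-Eb1 (-0.4683) and Cd74 (-0.4626) turned. Among members with a Car4 UMI Acta2 (-2.418) and Tagln (-1.389) turned. Of 77 listed or named genes that passed against general capillary cells, 46 passed in each of 18 alternatives that tested them. Against other endothelial cells 53 of 82 did so. A gene that an alternative did not test was not counted as lost there.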
